A study of Mus musculus with 122 samples.

Results

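Alveolar macrophages that carry only the short form of C/EBPβ and stain highly for CD11b were compared with alveolar macrophages of control mice, by RNA sequencing of cells sorted from bronchoalveolar lavage. The comparison uses every gene of the study's count table and 7 of the 122 samples, which are 4 libraries labelled Lip CD11b high and 3 labelled Lip WT. The Lip CD11b high cells came from adult mice of strain C/EBPtm1.2Acle on a mixed background with genotype Lip Lip/Lip, and the controls were Lip +/+ adults of the same strain and background, with no treatment in either group. The study profiled alveolar macrophages of several Cebpb mutants, each against its own control. Further libraries used here for reference are 4 of Lip CD11b low cells from Lip Lip/Lip mice, 4 of unsplit Lip Lip/Lip cells with 4 Lip +/+ controls that were prepared alongside chromatin libraries, and 4 of CD11b high cells from Cebpb knockout mice (strain C/EBPb tm1Pfj) with 4 wild-type controls. The 4 CD11b low libraries of that knockout entered its fit only for the estimate of spread. The control cells were not split by CD11b, so in the Lip CD11b high comparison the genotype and the CD11b gate cannot be told apart. No animal is named in the labels, which only number the samples of a group, and the p-values therefore reflect sample-to-sample spread that may be technical. The cells are bulk populations, in which fewer cells of a type and less RNA per cell cannot be told apart.

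C/EBPβ is a leucine-zipper transcription factor that myeloid cells use to switch on lineage genes. Its single-exon gene, Cebpb, is translated from alternative start sites into the long activating forms LAP* and LAP and into the short form LIP, which keeps the DNA-binding and dimerization parts but lacks the activation domain. Alveolar macrophages live in the air space, where they take up and break down surfactant lipid under the control of GM-CSF and the nuclear receptor PPARγ, and CD11b (Itgam) is low on resting cells of this kind and higher on monocyte-derived and immature macrophages.

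The 7 libraries held 951092 to 1712004 counts in the control group and 1051271 to 1316737 in the Lip CD11b high group, so a gene with 3 counts had a level of 1.75 to 3.15 CPM (counts normalised to the library total) in the controls. Mitochondrial transcripts took 1.03% to 1.15% of the counts in the controls and 1.54% to 1.77% in the Lip CD11b high libraries. Over all 11 Lip libraries the first principal component carried 59.5% of the variance and placed the controls at -54.9 to -52.9, the Lip CD11b low libraries at 1.95 to 9.32 and the Lip CD11b high libraries at 31.6 to 38.7. Itgam, the gene of the sort marker, was at 0, 1.73 and 0 CPM in the controls and at 13.7, 22.1, 13.1 and 16.9 CPM in the Lip CD11b high libraries. The gate selects for such a difference, which is therefore no finding. Itgam was at 3.01 to 5.44 CPM in the Lip CD11b low libraries. In unsplit Lip cells it was at 4.13 to 13.2 CPM, against 0.649 to 2.54 CPM in their controls. Control libraries expressed the alveolar macrophage genes Siglecf (244 to 312 CPM), Marco (646 to 1096 CPM) and Fabp1 (944 to 1072 CPM), as their label says.

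Cebpb (chr2:167688915-167690432, GRCm38) remained transcribed. It was counted at 502, 685 and 611 CPM in the controls and at 665, 797, 762 and 744 CPM in the Lip CD11b high libraries. The 2 groups overlapped at their edges, and the log2 difference was 0.30 ± 0.10 (SE), with an adjusted p of 0.0169 in edgeR's quasi-likelihood test. That call was lost without control replicate 1 (0.20, adjusted p 0.177) or without Lip CD11b high replicate 2 (0.27, adjusted p 0.0595). Counts at the 3′ end of the transcript do not separate the forms of the protein, so this level does not check the allele. The paralogue Cebpa was at 90 to 136 CPM in the controls and 97.6 to 146 CPM in the Lip CD11b high libraries and did not pass the test (0.24 ± 0.13, adjusted p 0.15). It passed without control replicate 1 (0.38, adjusted p 0.0379) or without Lip CD11b high replicate 1 (0.36, adjusted p 0.0286).

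Of 8918 genes tested, 1855 were higher and 1650 were lower in Lip CD11b high cells than in the controls at an adjusted p under 0.05, which is 20.8% and 18.5% of the genes tested. The values of the 2 groups did not overlap in 3107 of these 3505 genes. Choosing genes by p favours such separation, so that number describes the called genes and is no separate evidence. By more than 4-fold, 316 genes rose and 137 fell. The median log2 difference of all genes tested was 0.0004. Those shares are the background for the counts in each gene list below, which cover the members that passed a filter on low counts.

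Genes that define the alveolar macrophage were mostly lower. Of 34 tested members of a list of alveolar macrophage identity genes, 26 fell and 5 rose, with a median log2 difference of -1.15. Marco, a scavenger receptor for particles and bacteria, was at 1096, 646 and 785 CPM in the controls and at 5.14, 8.65, 8.48 and 3.22 CPM in the Lip CD11b high libraries. No value of one group came near the other, and the log2 difference was -7.03 ± 0.42 (adjusted p 1.2e-06). Ear1, a ribonuclease of the eosinophil-associated family, was at 531, 590 and 570 CPM against 5.14, 3.84, 8.48 and 2.41 CPM (-6.78 ± 0.19, adjusted p 5.6e-32). Its near-identical relatives may share reads with it. Siglecf, the sialic acid-binding receptor used to sort these cells in many laboratories, kept more of its level, with 244, 258 and 312 CPM against 74.5, 51.9, 89.4 and 61.9 CPM (-1.96 ± 0.13, adjusted p 3.5e-17). Krt79, a keratin, and Flt1, a receptor for VEGF, fell by 5.45 ± 0.24 and 5.10 ± 0.20 on the log2 scale. Against that direction, Itgax, which encodes CD11c, rose (1.07 ± 0.11), as did Ctsk, a cathepsin (1.33 ± 0.11), and Bhlhe40, a transcription factor of alveolar macrophage self-renewal (1.81 ± 0.12). The list as a whole summed to 68816 to 72507 CPM in the controls and to 23424 to 28889 CPM in the Lip CD11b high libraries.

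**Figure D1:**
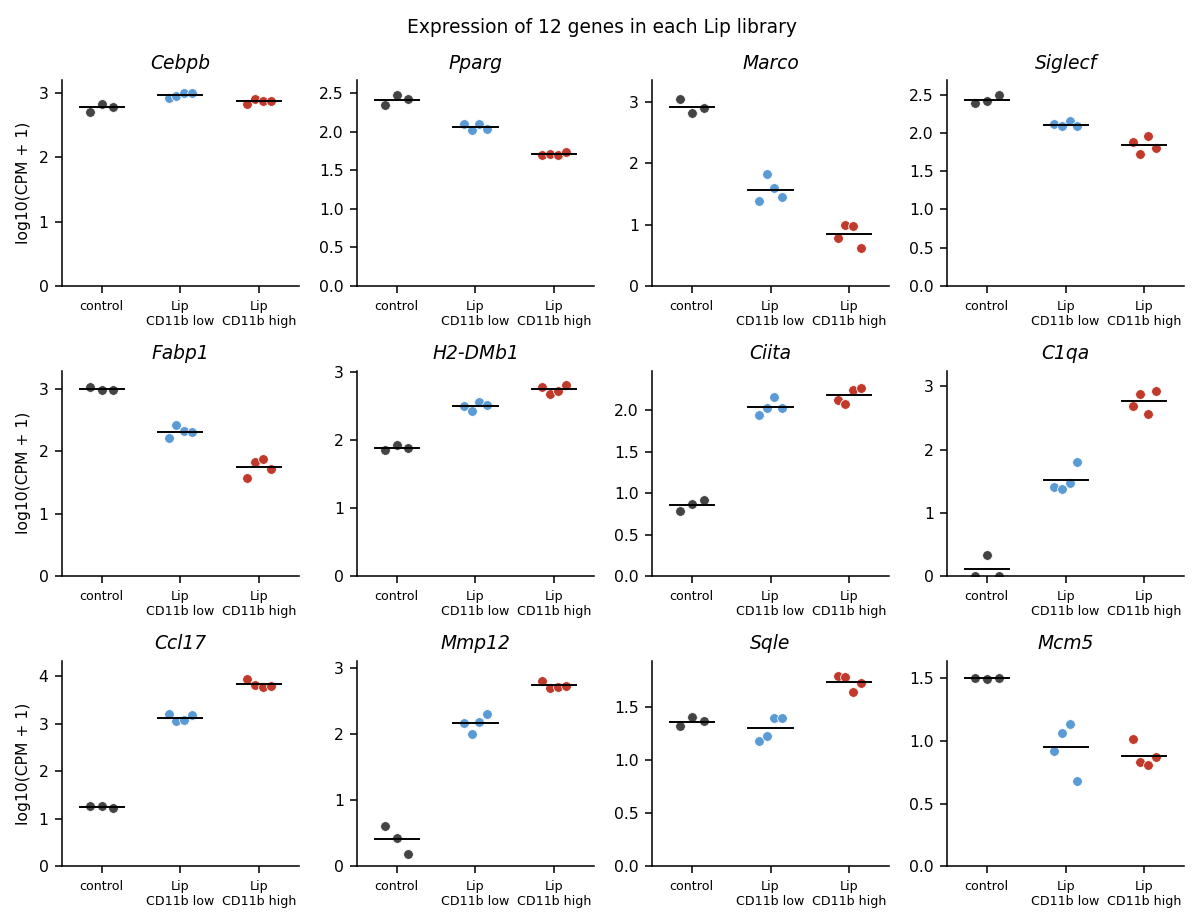
Expression of 12 genes in each Lip library, as log10(CPM + 1) on a linear axis that starts at 0. Points are libraries (3 control, 4 Lip CD11b low, 4 Lip CD11b high) and lines are group means. Pparg, Marco, Siglecf, Fabp1 and Mcm5 are lower and H2-DMb1, Ciita, C1qa, Ccl17, Mmp12 and Sqle higher in the Lip CD11b high libraries than in the controls, while the Cebpb points of these 2 groups overlap.

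PPARγ and the genes of lipid uptake and storage followed the same direction, with 17 of 28 tested members lower, 5 higher and a median log2 difference of -0.97. Pparg itself was at 221, 297 and 263 CPM in the controls and at 48.8, 50.9, 48.5 and 53.9 CPM in the Lip CD11b high libraries (-2.37 ± 0.13, adjusted p 5.9e-21). The 4 Lip CD11b high values lay close together and below every control. Fabp1, a cytosolic fatty acid carrier, was at 1072, 965 and 944 CPM against 36.8, 66.3, 73.2 and 50.7 CPM (-4.13 ± 0.17). Cidec, which enlarges lipid droplets, was at 521, 493 and 553 CPM against 21.4, 26, 24.7 and 19.3 CPM (-4.52 ± 0.15), and both groups were tight and far apart. The carrier Fabp4 (-3.50 ± 0.22), the fatty acid translocase Cd36 (-2.29 ± 0.18) and the droplet lipase Pnpla2 (-1.49 ± 0.11) fell as well. Acaa1b, a peroxisomal thiolase, went from 535, 391 and 622 CPM to 3.42, 3.84, 3.85 and 5.63 CPM (-6.91 ± 0.23, adjusted p 3.4e-20). G0s2, an inhibitor of the lipase that Pnpla2 encodes, had 132 counts over the controls and 2 over the Lip CD11b high libraries, a ratio of 0.0144 with a 95% counting interval of 0.00173 to 0.0531.

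Enzymes of fatty acid oxidation were lower in 14 of 24 tested cases and higher in 3, with a median log2 difference of -0.42. The count of higher members was 1 without control replicate 2 or 3 or without Lip CD11b high replicate 3, and 2 without any one of the other 3 Lip CD11b high libraries. Hsd17b4, the bifunctional enzyme of peroxisomes, was at 244, 318 and 319 CPM in the controls and at 85.6, 93.2, 97.1 and 78 CPM in the Lip CD11b high libraries (-1.74 ± 0.12). Cpt2, which acts in the import of acyl chains into mitochondria (-1.33 ± 0.18), Eci2 (-1.24 ± 0.12) and the trifunctional protein subunit Hadhb (-1.19 ± 0.15) fell with non-overlapping values. Nuclear-encoded respiratory chain subunits fell in 16 of 42 and rose in 4 of 42 cases, a smaller median of -0.20, with Ndufa4 as the largest change (-2.30 ± 0.16). The mitochondrial share of counts was higher in the Lip CD11b high libraries, and its part in these results was not tested.

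Cholesterol genes divided by role. Of 21 tested genes of cholesterol synthesis and its SREBP2 control, 13 rose and 0 fell, with a median log2 difference of 0.75. Sqle, the squalene epoxidase, was at 19.7, 24.2 and 22.1 CPM in the controls and at 60.8, 58.6, 42.4 and 52.3 CPM in the Lip CD11b high libraries (1.26 ± 0.20, adjusted p 1.1e-06). The 2 groups did not overlap. Mvd of the mevalonate pathway (1.09 ± 0.13) and Srebf2, the transcription factor that induces the pathway (0.75 ± 0.13), rose too. Among 16 tested genes of cholesterol efflux and LXR targets, 8 fell and 3 rose (median -0.57), the latter count being 1 without control replicate 2 or 3 or Lip CD11b high replicate 3 and 2 without control replicate 1 or Lip CD11b high replicate 1 or 4. Nr1h3, which encodes LXRα, was at 57.9, 58.7 and 74.5 CPM against 6.85, 15.4, 10.8 and 12.1 CPM (-2.51 ± 0.22, adjusted p 1.4e-13). The cholesterol exporter Abcg1 (-1.55 ± 0.18), the lipoprotein receptor Scarb1 (-1.29 ± 0.14) and the apolipoprotein Apoc1 (-4.55 ± 0.39) fell, and the lysosomal sterol carrier Npc2 rose (1.18 ± 0.10). The exporter Abca1 was at 27.9, 22.4 and 29.8 CPM in the controls and at 4.28, 6.73, 25.4 and 6.43 CPM in the Lip CD11b high libraries, where replicate 3 lay inside the control range. Abca1 did not pass the test with all 4 libraries (-1.26 ± 0.52, adjusted p 0.0836) and did without replicate 3 (-2.19, adjusted p 1.5e-06). With all 4 libraries it also passed with no count filter (adjusted p 0.000136), with the replicate block (adjusted p 0.00225) and with the 2 groups fitted alone (adjusted p 0.0408). Apoe, the apolipoprotein that macrophages secrete, was at 134, 178 and 113 CPM against 125, 128, 138 and 691 CPM, and 1 library decided the sign of its difference (0.94 ± 0.83, adjusted p 0.432, and -0.13 without Lip CD11b high replicate 4).

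Antigen presentation by MHC class II was higher throughout the list, with 12 of 12 tested members raised and a median log2 difference of 3.72, or 3.36 when H2-Ob, absent from all controls, is set to its lower bound. Ciita, the master transcriptional activator of these genes, was at 5.17, 6.33 and 7.17 CPM in the controls and at 133, 118, 174 and 183 CPM in the Lip CD11b high libraries (4.56 ± 0.24, adjusted p 1.1e-15). H2-DMb1, a subunit of the peptide editor H2-DM, was at 71.4, 84 and 75.6 CPM against 614, 485, 538 and 643 CPM (2.88 ± 0.13, adjusted p 8.4e-24). In both genes the lowest Lip CD11b high value exceeded the highest control value several-fold. The partner subunit H2-DMa (1.81 ± 0.10) and the co-stimulatory ligand Cd86 (2.43 ± 0.26) rose. The class II chain H2-Ab1 and the invariant chain Cd74, chosen after their values were seen, were the most abundant: H2-Ab1 was at 52.8 to 75.9 CPM in the controls and 7733 to 16730 CPM in the Lip CD11b high libraries, and Cd74 at 108 to 145 CPM against 11130 to 17708 CPM. The list summed to 853 to 1011 CPM in the controls and to 35265 to 55892 CPM in the Lip CD11b high libraries. Reads of the H2 genes can be shared with their close relatives.

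Complement genes and markers of monocytes and tissue macrophages were also higher. Both lists hold Itgam, the gene of the sort marker, which is left out of the counts here. Of the other 10 tested complement genes 7 rose and 2 fell (median 5.01), and of the other 20 tested monocyte and tissue macrophage genes 16 rose and 2 fell (median 1.86; 3 fell without control replicate 3). With Itgam the counts were 8 of 11 and 17 of 21 higher, with medians of 4.45, the value of Itgam itself, and 2.2. C1qa, a chain of the C1q recognition complex, had 2 counts over the controls and was at 485, 741, 365 and 827 CPM in the Lip CD11b high libraries, a count ratio of 1351 with a 95% interval of 374 to 11159. The interval is wide because of the control counts, and every Lip CD11b high library stood far above every control. C3ar1, the C3a receptor, had 2 counts over the controls and 287 over the Lip CD11b high libraries, a ratio of 137 with an interval of 37.4 to 1133. C3, the central complement component, went the other way, with 141, 131 and 168 CPM against 11.1, 9.61, 23.9 and 21.7 CPM (-3.11 ± 0.21, adjusted p 1.4e-12). Csf1r, the M-CSF receptor, was at 270, 265 and 298 CPM in the controls and 735, 753, 803 and 914 CPM in the Lip CD11b high libraries (1.53 ± 0.10). Anpep, an aminopeptidase of myeloid cells, had 3 counts over the controls and 359 over the Lip CD11b high libraries, a ratio of 114 with an interval of 38.6 to 555. The summed level of the monocyte and tissue macrophage list was 1904 to 2037 CPM in the controls, 3119 to 3367 CPM in Lip CD11b low cells and 4481 to 5828 CPM in Lip CD11b high cells.

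Secreted factors changed in both directions. Among 18 tested inflammatory cytokines and chemokines 7 rose and 9 fell (median -0.16). Ccl17, a chemokine for CCR4-bearing T cells, was at 17.6, 17.3 and 16 CPM in the controls and at 8740, 6462, 5912 and 6130 CPM in the Lip CD11b high libraries (8.65 ± 0.21, adjusted p 3.3e-19). The transmembrane chemokine Cxcl16 rose (5.18 ± 0.24), as did Tgfb1 (1.30 ± 0.12). Il1rn, which encodes the antagonist of the IL-1 receptor, was at 80.7, 85.1 and 82.7 CPM against 5.14, 9.61, 23.1 and 11.3 CPM (-2.71 ± 0.22). Of 12 tested matrix proteases and inhibitors 7 rose and 2 fell (median 1.85; 3 fell without Lip CD11b high replicate 1). Mmp12, the macrophage elastase, was at 3.1, 1.73 and 0.552 CPM in the controls and at 643, 506, 531 and 547 CPM in the Lip CD11b high libraries (8.41 ± 0.33, adjusted p 3.3e-13). The collagenase Mmp8 fell (-3.52 ± 0.24), and the inhibitors Timp2 (3.27 ± 0.13) and Cst3 (2.36 ± 0.11) rose. Mfge8, a bridge between dying cells and phagocytes, was at 15.5, 11.5 and 7.72 CPM against 2182, 1863, 2106 and 2010 CPM (7.53 ± 0.16, adjusted p 9.7e-37).

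Of 19 tested genes of the GM-CSF, M-CSF and STAT5 axis 11 rose and 2 fell (median 0.83; 3 fell without control replicate 1). Csf2rb, the common β chain of the GM-CSF receptor, was at 1403, 1211 and 1319 CPM in the controls and 1187, 1235, 1474 and 1435 CPM in the Lip CD11b high libraries, and the groups overlapped (0.03 ± 0.10, adjusted p 0.868; Csf2rb2 is a close copy). The α chain Csf2ra rose by a small amount (0.38 ± 0.10, adjusted p 0.0032). Irf5, a transcription factor of inflammatory macrophages, rose (2.37 ± 0.14) and Csf3r, the G-CSF receptor, fell (-4.76 ± 0.35). The survival gene Bcl2 had 1 count over the controls and 153 over the Lip CD11b high libraries, a ratio of 146 with an interval of 25.7 to 5786. Of 14 tested integrin genes other than Itgam 7 rose and 3 fell (median 0.36), with Itga4 at 56.9, 66.7 and 59.6 CPM against 226, 167, 178 and 195 CPM (1.64 ± 0.13) and the laminin receptor subunit Itga6 lower (-2.86 ± 0.34). Among 30 macrophage transcription regulators and their signals 13 rose and 7 fell (median 0.25). Id2, an inhibitor of E proteins, was at 148, 178 and 142 CPM against 705, 739, 640 and 637 CPM (2.12 ± 0.11, adjusted p 2.8e-21). The TGF-β receptor gene Tgfbr1 (1.78 ± 0.11) and the Notch effector Rbpj (2.41 ± 0.19) also rose with no overlap between the groups.

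Cell cycle genes were lower in 27 of 34 tested cases and higher in 1, with a median log2 difference of -1.08. The replication helicase subunit Mcm6 was at 65.2, 59.3 and 53 CPM in the controls and at 14.6, 15.4, 8.48 and 9.65 CPM in the Lip CD11b high libraries (-2.30 ± 0.21), and Mcm5 (-2.18 ± 0.30) and the thymidine kinase Tk1 (-2.35 ± 0.31) fell likewise. The member that rose was cyclin D1, Ccnd1, which had 3 counts over the controls and 192 over the Lip CD11b high libraries, a ratio of 60.9 with an interval of 20.5 to 298.

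The remaining lists were mixed. Lysosomal and surfactant breakdown genes rose in 13 of 30 and fell in 7 of 30 cases, with the protease Ctss at 2780.5, 3129 and 2845 CPM in the controls and 8902 to 9853 CPM in the Lip CD11b high libraries (1.69 ± 0.10). Of 15 C-type lectin and Fc receptor genes 6 rose and 6 fell. The activating receptor Fcgr4 fell from 285, 197 and 265 CPM to 23.1, 19.2, 22.3 and 27.3 CPM (-3.41 ± 0.15), while the inhibitory receptor Fcgr2b rose from 130, 137 and 146 CPM to 527, 518, 415 and 564 CPM (1.87 ± 0.12). Antioxidant genes rose in 8 and fell in 10 of 23 cases (5 rose without control replicate 2 or 3 or Lip CD11b high replicate 3), with the cystine transporter Slc7a11 up (3.55 ± 0.29) and thioredoxin, Txn1, down (-1.39 ± 0.10). The glycolysis and hypoxia list had 8 of 19 higher and 3 lower, and the glucose transporter Slc2a1 rose (2.56 ± 0.32). Stress and dissociation genes fell in 8 and rose in 2 of 18 cases, Hspa8 among those that fell (-0.90 ± 0.10), and 0 rose without control replicate 2 or 3 or Lip CD11b high replicate 1 and 1 without Lip CD11b high replicate 4. Genes of the ATF4 response (3 higher and 4 lower of 14), lipid-associated macrophage genes (9 higher and 6 lower of 19), type I interferon response genes (2 higher and 1 lower of 22) and the C/EBP family with its partners (3 higher and 2 lower of 8) had medians of 0.16, 0.37, 0.58 and 0.15. In the interferon list 1 gene rose without Lip CD11b high replicate 1 or 4 and 3 fell without replicate 4. In the C/EBP family Nfil3 fell (-1.92 ± 0.23). Its counts were 1 or 2 higher without Lip CD11b high replicate 2 or 4, and 1 lower without control replicate 1 or 3 or Lip CD11b high replicate 1, 3 or 4.

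**Figure D2:**
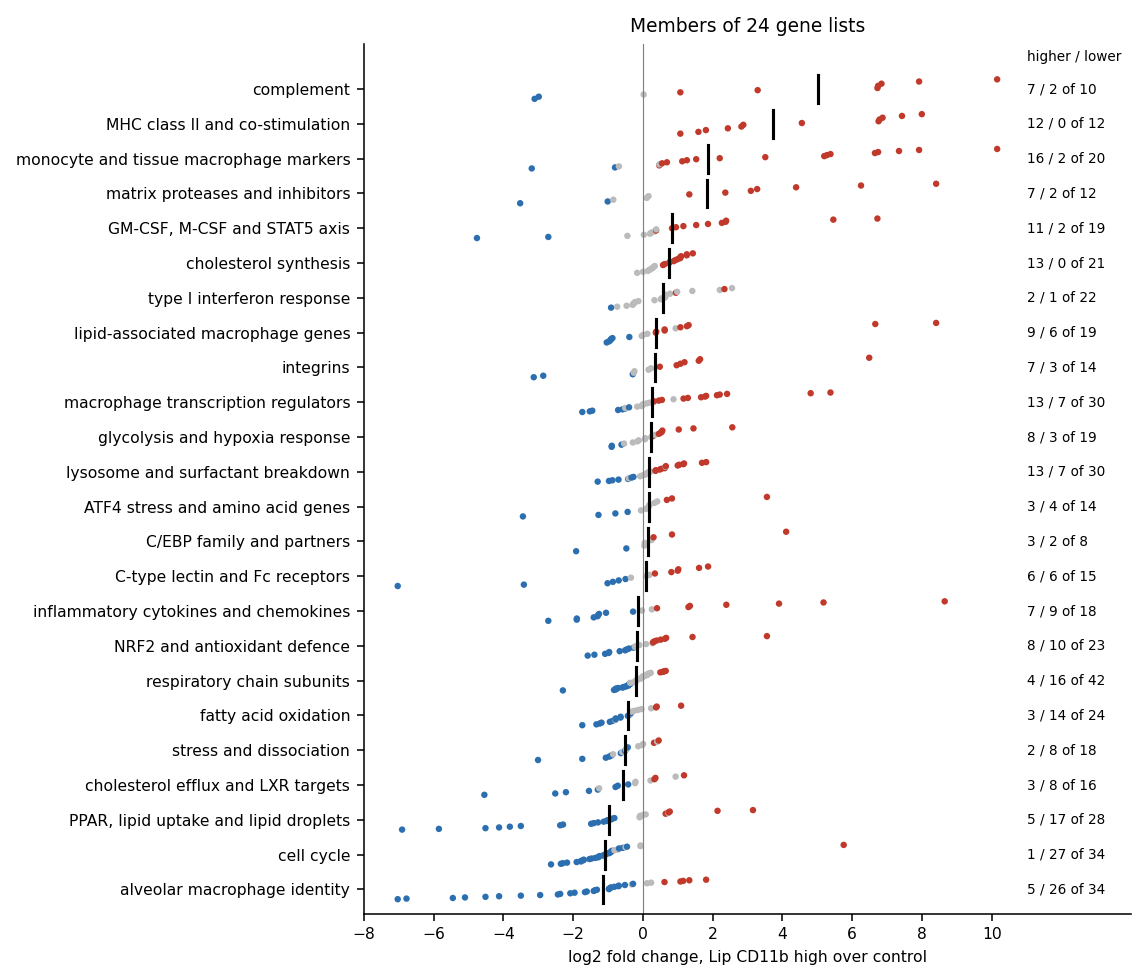
Log2 fold change of Lip CD11b high over control for the tested members of 24 gene lists, ordered by median (black bar). Points are genes, red where called higher, blue where called lower and grey where not called, and the numbers at the right give the counts. Itgam, the gene of the sort marker, is left out. Complement (7 higher, 2 lower) and MHC class II (12 higher) lie at the top and alveolar macrophage identity (26 lower, 5 higher) at the bottom.

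The largest rises included genes with no count in any control library. Lower bounds that grant the control group 3 counts gave at least 134-fold more Pitx1 (a homeobox factor), at least 133-fold more Pmp22 (a myelin membrane protein), at least 105-fold more Cyp4a12b (a fatty acid hydroxylase with a near-identical neighbour), at least 85.9-fold more Il7r (the IL-7 receptor), at least 84.7-fold more Npy (neuropeptide Y) and at least 62.8-fold more Gas6 (a ligand of TAM receptors) in the Lip CD11b high cells. Pitx1 was at 69.4, 166, 72.4 and 61.1 CPM and Pmp22 at 78.8, 87.5, 77.8 and 109 CPM in these 4 libraries. Mgl2, a galactose-binding lectin, had 1 count over the controls and 1489 over the Lip CD11b high libraries, and Kcnn4, a calcium-activated potassium channel, 1 and 813. Of the falls, Lepr, the leptin receptor, was at 77.6, 43.7 and 84.4 CPM in the controls and 0 in all 4 Lip CD11b high libraries, at least 107-fold lower. Fpr1, a receptor for bacterial formyl peptides, was at 314, 308 and 323 CPM against 3.42, 8.65, 12.3 and 1.61 CPM (-5.58 ± 0.30). Plcb1, a phospholipase C (-5.11 ± 0.28), Cpne5, a copine (-5.08 ± 0.39), and Lrg1, a secreted glycoprotein (-4.98 ± 0.30), fell as well.

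Lip CD11b low cells, from the same genotype, place these values on a scale within the mutant. Against the CD11b low cells 897 genes were higher (10.1% of 8918) and 845 were lower (9.48%) in the CD11b high cells. Pparg was at 124, 104, 123 and 108 CPM in the CD11b low libraries, below every control and above every CD11b high library (-1.18 ± 0.13 for high over low, adjusted p 4.2e-10). C1qa was at 24.7, 22.6, 28.4 and 62.2 CPM in CD11b low cells (4.03 ± 0.40 for high over low), and Ccl17 at 1596, 1114, 1214 and 1500 CPM (2.33 ± 0.12). Not every change followed that order. Mfge8 was at 1594 to 1929 CPM in CD11b low cells, a difference from the CD11b high cells that did not pass the test (0.20 ± 0.09, adjusted p 0.122). Sqle was at 14 to 23.7 CPM in CD11b low cells, overlapping the controls, so that its rise appeared in the CD11b high libraries and not in the CD11b low ones. The synthesis list as a whole had 11 members higher and 0 lower in CD11b high than in CD11b low cells. Identity genes were lower in 28 and higher in 1 of 34 cases, and MHC class II genes higher in 7 of 12. Cell cycle genes were higher in 3 and lower in 3 of 34 cases. Across the 1855 genes higher and 1650 lower than in the controls, the CD11b low mean lay between those of the other groups in 1470 and 1323, a description of libraries that also chose the genes. For the 10 called stress and dissociation genes it did so in 0 cases, and their CD11b low mean was the lowest of the 3 groups.

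The 8 unsplit Lip libraries share no sample with the comparison above. In them 294 genes were higher (3.1% of 9491) and 175 were lower (1.84%) in Lip than in control cells. Among 8779 genes tested in both sets, 263 were called higher in both, which is 14.9% of those higher in CD11b high cells and 92.9% of those higher in unsplit cells, and 146 were called lower in both (8.86% and 90.7%). Calls in opposite directions occurred for 0 of the genes higher and 1 of the genes lower in CD11b high cells. Marco was at 487, 735, 977 and 637 CPM in these controls and at 34.3, 28.9, 78.3 and 46.8 CPM in unsplit Lip cells (-3.92 ± 0.33). Ccl17 was at 89.7, 52.6, 43.6 and 78.2 CPM against 1709, 1052, 547 and 1473 CPM (4.19 ± 0.36), and Mfge8, Ciita and Lepr changed by 3.53 ± 0.27, 2.63 ± 0.26 and -5.32 ± 0.48. In the lists, MHC class II genes were higher in 10 of 12 cases and identity genes lower in 9 and higher in 5 of 34. Pparg itself did not pass the test there (-0.78 ± 0.25, adjusted p 0.104), with 171, 224, 228 and 124 CPM against 81.6, 98, 100 and 154 CPM. None of the 21 cholesterol synthesis genes was called, with Sqle at 0.26 ± 0.34 (adjusted p 0.844). Apoe was lower in unsplit Lip cells, at 66.5, 39.6, 19.3 and 25 CPM against 180, 140, 161 and 190 CPM (-2.15 ± 0.32, adjusted p 0.00033).

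**Figure D3:**
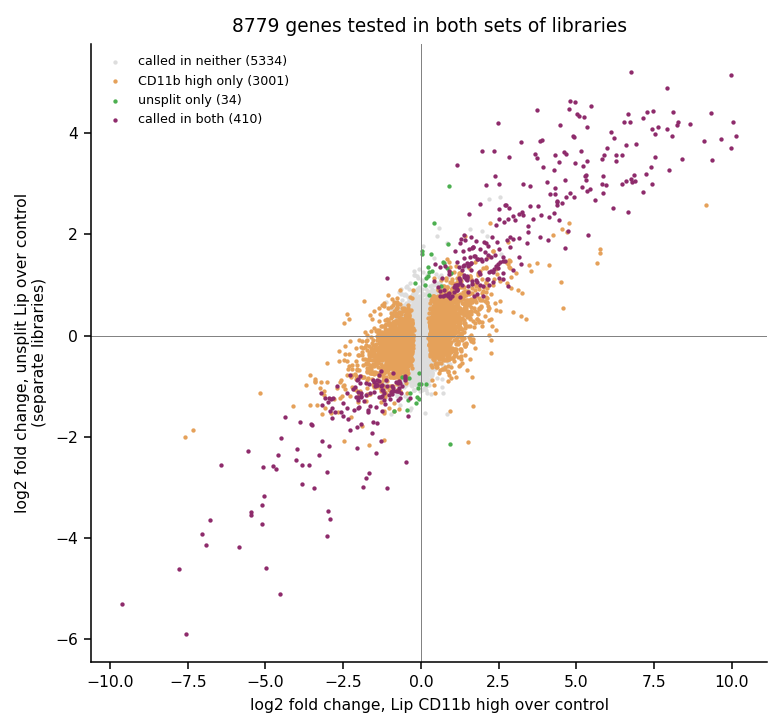
Log2 fold change over control in Lip CD11b high cells (x axis) and in unsplit Lip cells from separate libraries (y axis) for 8779 genes tested in both. Purple points were called in both (410), orange in the CD11b high comparison only (3001), green in the unsplit comparison only (34) and grey in neither (5334). Purple points lie in the lower left and upper right except for 1.

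Cebpb knockout cells of the same CD11b label allow the short form to be set against the loss of C/EBPβ. Cebpb was at 547 to 1463 CPM in the knockout's controls and at 24.6 to 87.7 CPM in its CD11b high cells (-4.40 ± 0.35). Against those controls 1616 genes were higher (17% of 9501) and 1500 lower (15.8%) in knockout CD11b high cells, 3116 in all and 2044 when the 12 libraries of the knockout set were fitted alone. The difference between the 2 mutants' effects, tested as an interaction over 23 libraries, was called higher for 385 genes (4.05%) and lower for 182 genes (1.92%). The 2 mutants came from different strains and controls, so a strain effect on the difference cannot be told apart from the alleles.

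Cholesterol synthesis genes moved in opposite directions in the CD11b high cells of the 2 mutants. In knockout CD11b high cells 17 of the 21 genes were lower and 0 higher than in their controls (median -1.33), in Lip CD11b high cells 13 were higher and 0 lower, and the difference between them was called higher in Lip for 18 and lower for 0. Sqle was at 25.5, 23.2, 33.4 and 23.7 CPM in the knockout's controls and at 4.62, 5.93, 5.53 and 3.98 CPM in knockout CD11b high cells, so the difference between the effects was 3.72 ± 0.41 (adjusted p 1.6e-07) and that of Srebf2 was 1.84 ± 0.30 (adjusted p 1.1e-04). Identity genes fell in 28 and rose in 3 of 34 cases in the knockout, and 15 differences were called towards Lip and 2 towards the knockout. Siglecf was at 308 to 435 CPM in the knockout's controls and 11 to 29 CPM in its CD11b high cells, a deeper fall than in Lip (difference 2.39 ± 0.33, adjusted p 6.9e-06). Pparg fell in both, and the difference of 0.32 ± 0.30 did not pass the test (adjusted p 0.673).

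Single genes also parted between the mutants. Epcam, an adhesion molecule, rose in Lip CD11b high cells from 7.24, 12.7 and 7.17 CPM to 59.1, 99, 173 and 76.4 CPM and fell in the knockout from 14.8, 28.6, 109 and 58.8 CPM to 6.16, 5.93, 6.91 and 2.98 CPM (difference 6.91 ± 0.83, adjusted p 1.3e-05). Flt1 fell in Lip, from 281, 341 and 335 CPM to 6.85, 3.84, 7.71 and 17.7 CPM. In the knockout it rose, from 6.72, 17.7, 60.1 and 46.4 CPM to 73.1, 102, 156 and 103 CPM (difference -6.69 ± 0.59, adjusted p 1.5e-07). Apoe reached 22352 to 28502 CPM in knockout CD11b high cells from 1233 to 1451 CPM in their controls. The Lip CD11b high libraries were at 125 to 691 CPM and their controls at 113 to 178 CPM (difference -3.38 ± 0.79, adjusted p 0.013). For Epcam, Flt1 and Apoe the 2 control sets thus differed in level. Id2 (2.62 ± 0.32), Tgfbr1 (1.58 ± 0.37), Mmp12 (4.96 ± 0.79) and Mfge8 (3.72 ± 0.54) were called higher in Lip by the difference, and Fcgr2b lower (-2.21 ± 0.29). Mmp12 was at 0.552 to 3.1 CPM in the Lip controls and at 10.3 to 39 CPM in the knockout's controls. Fcgr2b was at 130 to 146 CPM and 38.2 to 58.7 CPM, and Id2 at 142 to 178 CPM and 207 to 333 CPM. The part of the control levels in all these differences was not tested.

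**Figure D4:**
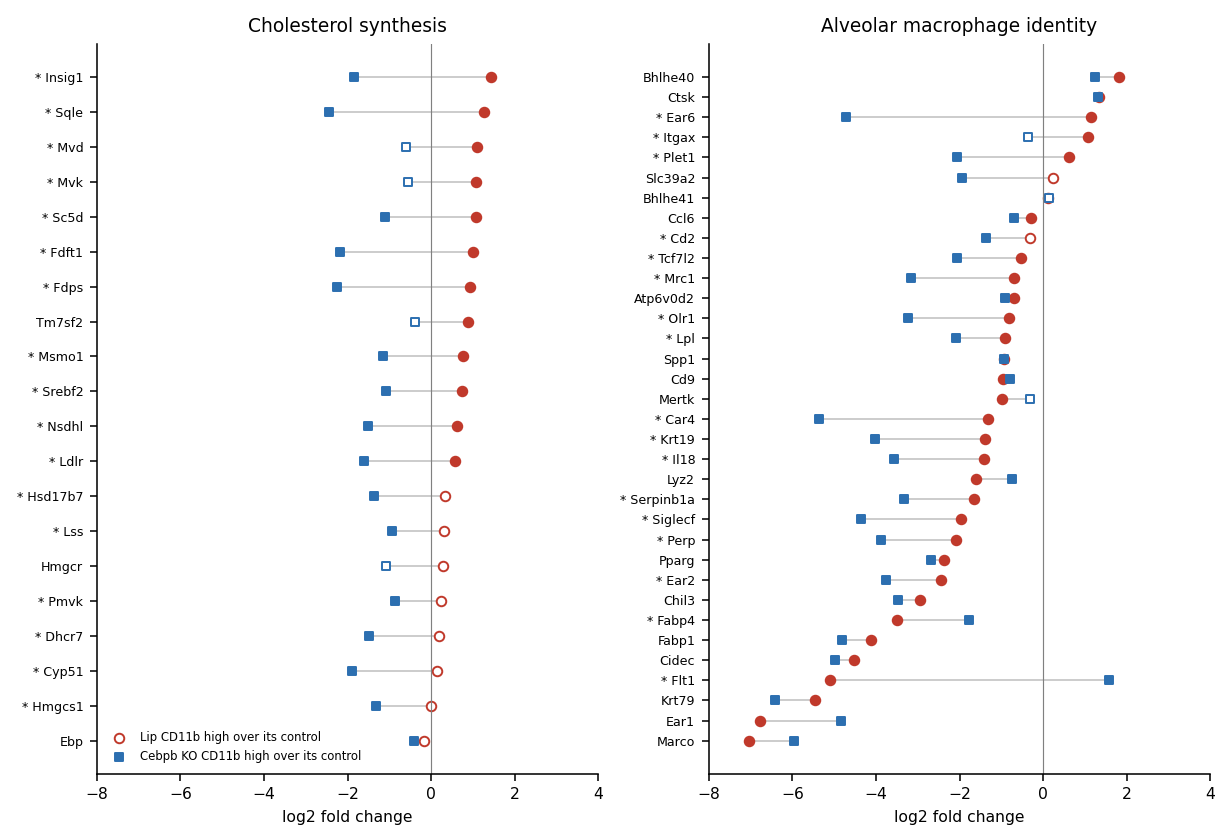
Log2 fold change over the matching control in Lip CD11b high cells (red circles) and Cebpb knockout CD11b high cells (blue squares) for 20 of the tested genes of cholesterol synthesis and those of alveolar macrophage identity (34). Filled symbols passed the test, and a star marks genes whose difference between the mutants passed it (17 in each panel). In the left panel called red circles lie right of 0 and called blue squares left of it, and in the right panel both lie mostly left of 0.

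C/EBPβ binding in wild-type alveolar macrophages of C57BL/6 mice, mapped by ChIP in 2 samples with 27105 and 22558 peaks, adds position to these changes. A region bound in both samples lay inside a gene or within 10 kb of it for 63.1% of 8891 tested genes, for 63.1% of the genes that rose and for 74.5% of those that fell. Among genes that fell by more than 4-fold the share was 87.5% (119 of 136, exact 95% interval 80.7% to 92.5%), and among those that rose by more than 4-fold it was 55.2% (174 of 315, 49.6% to 60.8%). The intervals cover counting error only, and neighbouring genes can share a region. Binding was mapped in wild-type cells. Genes that fell by more than 4-fold were expressed in the controls. Some that rose by more than 4-fold, such as Pitx1 and Pmp22, had no count there. The groups were not matched for control level, and its part in these shares was not tested. The median gene span was 23112 bases for genes that fell, 23544 for genes that rose and 23800 for all. Among the genes chosen for naming by the rule in the methods, 51 of 60 that fell had such a region (median 2, range 0 to 12) and 54 of 80 that rose did (median 1, range 0 to 5). Pparg (chr6:115360879-115490404) and Cd36 (chr5:17781690-17888959), which fell, each had 12, Marco had 3 and Fabp4, Cpt2, Eci2, Lrg1 and Mcm6 had 0. Of the genes that rose, C1qa, Mfge8 and Id2 had 0, Ciita, Mmp12 and Ccl17 had 1, Tgfbr1 and Itgax had 4 and Slc7a11, Tgfb1 and Rbpj had 5.

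**Figure D5:**
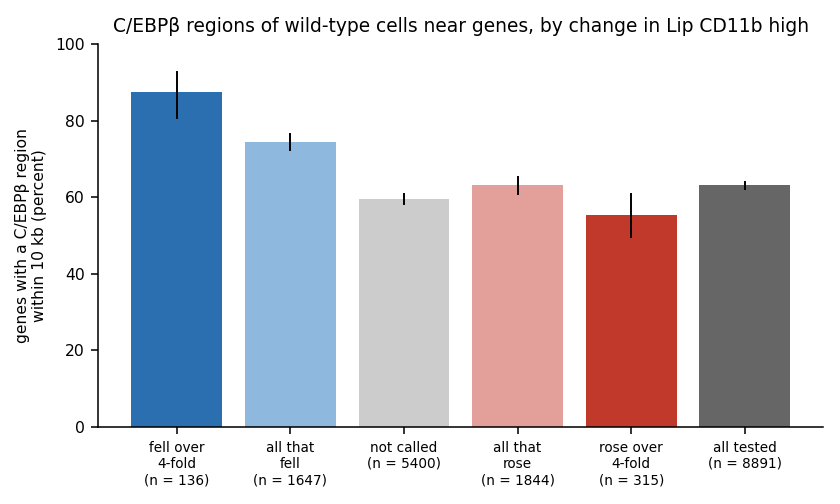
Percent of genes with a C/EBPβ region of both wild-type ChIP samples inside the gene or within 10 kb, by the gene's change in Lip CD11b high cells. Bars start at 0 and lines are exact 95% binomial intervals. The groups of genes were not matched for their level in the controls. The share is 87.5% for genes that fell by more than 4-fold, 74.5% for all that fell, 63.1% for all that rose and 55.2% for genes that rose by more than 4-fold, beside 63.1% for all tested.

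Promoter windows of 250 bases before to 50 bases after the start, from RefSeq on GRCm38.p6, were searched for the core of the C/EBP motif, TTGCNNAA, and its reverse complement TTNNGCAA. The motif occurred in 10.8% of 32851 windows, in 10% of 7286 tested genes, in 9.8% of the genes that rose and in 12.5% of those that fell. A motif and a bound region in the same window occurred for 4.5% of tested genes, 3.81% of those that rose and 6.6% of those that fell. Pparg shows both, at a start site inside the gene, and 250 bases of it are given because this receptor gene fell with its lipid targets. Shorter stretches follow for 3 other genes that fell (Ear1, Cidec, C3) and 2 that rose (Rnase2a, Slc7a11), to set the 2 directions side by side. Capitals mark the 8 motif letters, each sequence reads 5′ to 3′ on the gene's strand, and a match describes letters and no more.
Pparg: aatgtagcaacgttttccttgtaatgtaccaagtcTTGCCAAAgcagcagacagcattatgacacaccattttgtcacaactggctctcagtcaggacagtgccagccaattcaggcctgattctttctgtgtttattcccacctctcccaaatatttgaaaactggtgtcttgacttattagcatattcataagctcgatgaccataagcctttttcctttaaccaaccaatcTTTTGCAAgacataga
Ear1: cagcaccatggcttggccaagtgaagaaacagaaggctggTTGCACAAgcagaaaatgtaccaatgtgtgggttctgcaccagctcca
Cidec: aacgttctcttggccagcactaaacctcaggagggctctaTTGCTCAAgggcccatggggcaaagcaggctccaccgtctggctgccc
C3: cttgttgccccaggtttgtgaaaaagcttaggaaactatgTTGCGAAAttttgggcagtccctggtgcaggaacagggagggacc
Rnase2a: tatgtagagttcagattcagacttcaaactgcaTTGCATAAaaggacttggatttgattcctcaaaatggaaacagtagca
Slc7a11: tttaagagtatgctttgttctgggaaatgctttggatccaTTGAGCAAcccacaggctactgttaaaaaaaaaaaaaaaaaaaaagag

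The coordinates that follow are those of the stretches printed. The Pparg stretch (chr6:115421816-115422065, plus strand) held the motif starting 215 and 16 bases before the start site. Single motifs began 92 bases before the start for Ear1 (chr14:43819684-43819771, minus strand), 198 for Cidec (chr6:113434915-113435002, minus strand), 45 for C3 (chr17:57228137-57228221, minus strand), 217 for Rnase2a (chr14:51256282-51256362, minus strand) and 160 for Slc7a11 (chr3:50443726-50443813, minus strand). All 6 windows overlapped a bound region of both samples, with folds over background in the authors' peak lists of 40.2 and 53.4 for Pparg, 8.59 and 7.4 for Ear1 and 8.46 and 14.8 for Rnase2a. Rnase2a, a ribonuclease of the same family as Ear1, had no count in the controls and was at 70.2, 59.6, 27.7 and 45.8 CPM in the Lip CD11b high libraries, at least 75.1-fold higher, whereas Ear1 fell.

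Markers of other cells were counted in the same libraries. Of 10 neutrophil markers 4 were tested and all 4 fell, among them Csf3r and Mmp8, whose falls are also given above under other lists. The 10 markers summed to 201 to 219 CPM in the controls and 32.5 to 47 CPM in Lip CD11b high cells, and 6 were at 0 in the controls. Of 13 lymphocyte markers counted, 11 were at 0 in every control, and the sum was 0 to 2.3 CPM in the controls and 74.7 to 86 CPM in Lip CD11b high cells, led by Il7r and Cd4, while the lineage genes Cd3d, Cd3e, Cd3g, Cd79a and Cd79b held 4, 2, 2, 0 and 1 counts over the 4 Lip CD11b high libraries. Of 14 epithelial markers 2 were tested, Epcam rose and Cdh1 fell, and the sum was 40.3 to 43 CPM in the controls and 77.1 to 192 CPM in Lip CD11b high cells, with Sftpb, Lamp3 and Scgb3a2 at 0 in both groups. Of 7 erythroid markers the 4 hemoglobin genes tested were called higher, with sums of 2.07 to 3.45 CPM in the controls and 3.42 to 137 CPM in Lip CD11b high cells, the lowest in replicate 1, and near-identical copies share their reads. Without control replicate 2 only 1 of these 4 was called, and without control replicate 3 only 2. Dendritic cell markers (11, of which 2 were tested and 1 rose) summed to 47.6 to 52.3 CPM and 42 to 105 CPM, eosinophil, mast cell and basophil markers (11, of which 1 was tested and not called) to 18.6 to 21.9 CPM and 11.1 to 24.7 CPM, and stromal and endothelial markers (12, of which only Vwf was tested and rose) to 80 to 96.2 CPM and 94.9 to 161 CPM. The Vwf call was lost without control replicate 2 or 3 or Lip CD11b high replicate 1 or 2 (adjusted p 0.0533 to 0.112). Without control replicate 2 a second dendritic cell marker was called, and without Lip CD11b high replicate 3 the eosinophil list's tested gene was called lower. The eosinophil genes Prg2 and Epx were at 0 in all 7 libraries. The part of other cells in the results above was not tested.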

How the data were processed

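RNA was counted per gene in sorted alveolar macrophages from libraries made with MARS-seq primers, per the labels' protocols. The deposited table holds the authors' raw counts for 22050 genes, and the submitters' processing notes list STAR 2.6.1a, featureCounts 1.6.3 and build GRCm38. Whether strand or molecular identifiers were used in counting is not given in these sources. The deposited ChIP peak lists, 1 per sample and called with MACS2 2.2.7.1 per the submitters' processing notes, give the authors' fold over background (a ratio) and a −log10 q-value of 5 or more for each peak. The comparisons were computed with edgeR 4.0.16 (R 4.3.3): filterByExpr with a minimum count of 10, TMM scaling, and the quasi-likelihood test with Benjamini-Hochberg adjustment at 0.05, over 11 Lip libraries, 23 Lip and Cebpb libraries for the knockout and the difference, and 8 unsplit libraries. ± is the SE of the log2 fold change. CPM values use library totals scaled by the TMM factors, except the levels given for 3 counts, which use unscaled totals.

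Ratios of counts carry exact 95% intervals for counting error, and lower bounds grant an empty group 3 counts over the group. Bound regions overlap by at least 1 base in both peak lists, and genes were matched to RefSeq by symbol (8624) or synonym (267), with 27 not matched. The members and lists were chosen with earlier results of these data known. Text genes are Cebpb, the 12 largest rises and falls with a mean of at least 20 CPM and no overlap, up to 4 called members of each list by p, the 6 largest of each direction against CD11b low cells and against the knockout, and a fixed set of named genes. Replicates of a group differed by more than sampling noise. Same-numbered Lip CD11b high and low libraries deviated together (correlations 0.184, 0.105, 0.137 and 0.248). The labels name no animal, so what a shared number stands for is not known. Values of CD11b high over low in the results come from the fit without a replicate block. Alternatives were DESeq2 1.42.0, RLE scaling, no filter, a replicate block, fits of the compared groups alone and leaving out each library, and the fit of the Lip libraries was tested on simulated data. A few list members are counted but not reported here by name.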

Additional observations from a re-analysis of the deposited data

Results flagged for a closer look

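In 13 of 262 gene and group combinations with 4 libraries, 1 library lay so far from the others that the gap exceeded Dixon's 95% limit. For independent normal values chance gives about 1 in 20, which is near this number. Lepr in Lip CD11b high cells, at 0 in all 4 libraries, is among the 262 and could not be flagged. The combinations share libraries and the genes were chosen from these data, so the match does not show that the flags are chance. In Lip CD11b high cells Abca1 was at 25.4 CPM in replicate 3 and at 4.28 to 6.73 CPM in the others. Apoe was at 691 CPM in replicate 4 and 125 to 138 CPM in the others. Ms4a6c was at 18.5 CPM in replicate 4 (others 9.25 to 10.3 CPM). Grb7 was at 0.856 CPM in replicate 1 (others 0), which is a single count (1 over the 4 libraries). Replicate 2 was highest for Pitx1, at 166 CPM against 61.1 to 72.4 CPM, and lowest for Ndufa4, at 20.2 CPM against 33.4 to 35.4 CPM. Eci2 was at 94.8 CPM in replicate 3 (others 107 to 108 CPM).

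In Lip CD11b low cells replicate 4 was highest for C1qa (62.2 CPM, others 22.6 to 28.4 CPM), Lilrb4a (801 CPM, others 595 to 627 CPM) and Il7r (16.9 CPM, others 9.79 to 10.7 CPM). Replicate 1 was lowest for Cebpa (106 CPM, others 118 to 119 CPM) and Ms4a7 (14.8 CPM, others 19.5 to 19.9 CPM). Pnpla2 was at 268 CPM in replicate 2 (others 208 to 215 CPM).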

How the results depend on the processing

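The count of called genes in Lip CD11b high against control cells was 3505, between 2910 (DESeq2) and 3875 (no filter) over the planned settings, 3507 with RLE scaling, 3460 with the 2 groups alone and 2958 to 3281 when 1 library was left out. Against CD11b low cells it was 1742, with 1366 for DESeq2, 1614 for the 2 groups alone, 1862 with the replicate block and 1442 to 1691 when 1 library was left out. For the knockout it fell from 3116 to 2044 (1039 higher, 1005 lower) when the 12 Cebpb libraries were fitted alone, a fit with fewer samples, and ranged from 2553 to 3563 when 1 library was left out. The difference between the mutants was called for 567 genes, and for 436 to 726 with 1 library left out, and the unsplit comparison called 469, and 325 to 535. Control and Lip CD11b high libraries share only a number (correlations of deviations -0.0311, 0.0133 and 0.00229), and the replicate block gave 3452 calls. No count moved by over 1.5 times with the block. For the unsplit Lip libraries the block was not fitted. Their columns are headed Lip_KO with a number, whereas the sample titles read Lip, so only the group was assigned. In single genes the sign changed for Apoe against control, from 0.94 to -0.068 with the replicate block and -0.13 without Lip CD11b high replicate 4 (-0.13 to 1.17 with 1 library left out). It changed for Csf2rb from 0.03 to -0.031 without control replicate 2 or Lip CD11b high replicate 3 and to -0.018 without replicate 4 (-0.031 to 0.075 with 1 library left out). Over all gene fold changes and settings 5315 values kept their direction and side of the threshold, 313 lost the call, 11 gained one and 5 changed sign. With regions within 2 kb, the share of genes near C/EBPβ was 53.2% for all, 52.5% for those that rose and 65.3% for those that fell, and with regions of either peak list it was 78.8%, 79.8% and 84.9%. The narrower distance and the wider list are part of what these settings are. A gene with 3 counts in a Lip library had 1.22 to 3.15 CPM of the unscaled total, so levels under that are not resolved. Leaving Itgam out of its 3 lists was chosen after seeing the data, and moved no count of called members by over 1.5 times.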
